A study of Mus musculus with 18 samples.

Results

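Deleting the clock gene Bmal1 from microglia can change transcripts in the microglia themselves and in the retinal cells around them, and the comparison described here asks for which genes those changes differ. The measure is an interaction on the log2 scale, the knockout-minus-control change in microglia minus the knockout-minus-control change in retina. It was tested for the genes with at least 10 reads in every one of the 18 libraries, which were 8228 of 55487 genes (14.8%). Positive values mean that the knockout raised a gene more, or lowered it less, in microglia than in retina, and negative values mean the opposite.

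Retinas of Bmal1f/f mice (controls) and Bmal1-mg/-mg mice (knockouts, which lack Bmal1 in microglia) were dissociated, and viable DAPI-negative cells were sorted by the surface protein CD11b. The CD11b-positive cells are called microglia and the CD11b-negative cells retina. There were 4 control and 5 knockout libraries for each of these fractions. The labels used here give no recombinase driver, strain, age or time of collection, and the name of the control genotype shows floxed Bmal1 alleles. The labels do not say outright that each replicate is a separate mouse, so the p-values measure the spread between these libraries. RNA was sequenced in bulk, so fewer cells of a type and less RNA per cell cannot be told apart.

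BMAL1 pairs with CLOCK and binds E-box sequences in the promoters of clock genes, among them the Per and Cry repressors, the nuclear receptors REV-ERB and the PAR bZIP factors Dbp, Tef and Hlf. The protein products of Per and Cry then inhibit BMAL1 and CLOCK, which closes the daily cycle. Microglia are the resident macrophages of the retina; rods, cones, bipolar cells and Mueller glia make up most of the CD11b-negative cells. Without the hour of collection the values are levels and cannot be read as rhythms.

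The promoters below belong to 4 genes on which the results turn, namely Rassf4 (the smallest p of the interaction), Racgap1 (the largest positive interaction among the called genes), Nr1d1 (the smallest p among the clock genes) and Cry2 (called higher in both fractions). Each run is the 250 bases upstream of the transcription start, 5′ to 3′ on the gene's strand, from RefSeq on GRCm38.p6. Capitals mark a match to CACGTG, to CACGTT or its complement AACGTG (an E-box and a variant of it), to 4 E2F-type letters (TTTCCCGC, TTTGGCGC, TTTGGCGG and TTTCGCGC) or to the cell cycle element TTTGAA, searched on both strands.

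Rassf4, chr6:116673837-116674086, minus strand: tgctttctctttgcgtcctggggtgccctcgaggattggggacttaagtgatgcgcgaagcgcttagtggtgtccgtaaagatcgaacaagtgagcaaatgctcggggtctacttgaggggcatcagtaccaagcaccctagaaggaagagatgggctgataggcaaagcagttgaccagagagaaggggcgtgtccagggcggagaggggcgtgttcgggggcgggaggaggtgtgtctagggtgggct

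Racgap1, chr15:99651657-99651906, minus strand: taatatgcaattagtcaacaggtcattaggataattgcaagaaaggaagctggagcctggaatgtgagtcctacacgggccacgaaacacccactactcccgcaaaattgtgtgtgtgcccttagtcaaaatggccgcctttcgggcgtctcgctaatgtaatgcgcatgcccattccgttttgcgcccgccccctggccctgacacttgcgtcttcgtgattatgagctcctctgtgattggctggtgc

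Nr1d1, chr11:98775378-98775627, minus strand: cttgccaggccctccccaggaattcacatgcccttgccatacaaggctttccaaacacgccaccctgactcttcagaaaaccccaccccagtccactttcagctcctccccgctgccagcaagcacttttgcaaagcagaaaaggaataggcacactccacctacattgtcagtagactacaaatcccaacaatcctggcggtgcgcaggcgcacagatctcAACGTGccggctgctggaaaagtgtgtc

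Cry2, chr2:92434070-92434319, minus strand: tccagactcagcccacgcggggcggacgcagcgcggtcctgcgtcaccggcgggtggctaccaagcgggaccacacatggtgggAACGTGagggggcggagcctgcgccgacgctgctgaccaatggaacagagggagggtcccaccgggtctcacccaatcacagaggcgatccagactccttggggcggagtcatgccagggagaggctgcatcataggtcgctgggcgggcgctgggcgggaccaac

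Nr1d1 and Cry2 each held 1 AACGTG, and none of the searched letters were found in the windows of Rassf4 and Racgap1. The RefSeq start of Rassf4 lies inside the GENCODE gene given below, so its window overlaps that gene. RefSeq promoters were matched for 5953 of the 8228 genes. CACGTG stood in 9.1% of the promoters of these genes, in 5 of 24 promoters of the clock list (Bhlhe41, Cry1, Per1 and Tef), in 1 of 17 promoters of the genes with a called negative interaction (Tpbgl) and in 0 of 7 of those with a positive one. CACGTT stood in 4.7% of the promoters of the genes tested, and among the called genes in those of Gnb2 and Itm2c.

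Values given as mean ± SD are over n = 4 control or n = 5 knockout libraries, and CPM are counts scaled to library size with TMM factors. Library totals ran from 32277156 to 47563119 counts, and the tested genes took 71.15% to 73.35% of the counts in microglia and 90.41% to 94.71% in retina. Some marker lists separated the fractions and others did not. The 27 homeostatic microglia genes summed to 88200 CPM in control microglia and 208 CPM in control retina, and 28 rod genes to 11800 and 241000 CPM. The 15 Mueller glia genes summed to 4030 CPM in control microglia and 3580 CPM in control retina, and 14 ganglion cell genes to 46.3 and 47.7 CPM. Detected genes (at least 1 count) did not overlap between genotypes in either fraction, numbering 18654 to 19363 in control and 17343 to 18438 in knockout microglia, and 16510 to 18715 in control and 18761 to 19713 in knockout retina. Replicate 1 of all 4 groups had 0 reads of 4 Y-linked genes, which had 44.6 to 111 CPM in the other libraries, and control replicate 1 had 41.2 CPM of Xist in microglia but 0.0779 CPM in retina. Their part in the results was not tested. Without control replicate 1 in both fractions 15 genes passed the interaction test in place of 23, and without replicate 1 of every group 7 did.

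Arntl, the targeted gene, encodes BMAL1, and was measured over the whole gene. Arntl had 21.4, 15.1, 9.65 and 26.4 CPM in control microglia (replicates 1 to 4) and 8.33, 1.99, 19.4, 23.7 and 13.4 CPM in knockout microglia. The control retina libraries had 114, 140.2, 123 and 97 CPM and the knockout ones 98, 81.9, 83.6, 87.1 and 125 CPM. The genotypes overlapped in both fractions. The interaction was -0.12 (SE 0.61, edgeR adjusted p = 0.964), the microglia change being -0.44 and the retina change -0.32 on the log2 scale. The 95% interval of the interaction ran from -1.41 to 1.16. Counts over the whole gene do not show a deletion of part of it, and the labels do not say which exons were removed.

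The genotype changes in the fractions differed for 23 of the 8228 genes (edgeR quasi-likelihood test, adjusted p under 0.05), 6 with a positive interaction (0.0729% of genes tested) and 17 with a negative one (0.207%). The 17 negative genes include Rassf4, Irf2bpl, Zfhx3, Itm2c and App, and all 17 were called higher in knockout retina (1.92% of genes tested were), while 0 of them were called in microglia by edgeR, DESeq2 or limma voom (2 had an unadjusted p under 0.05). The 6 positive genes are Zfp938, Cdkn2c, H2afx, Racgap1, Cdc34 and Tmsb4x; 5 of them were called higher in knockout microglia (0.0851% of genes tested were) and Tmsb4x instead fell in knockout retina (0.243%). For 19 of the 23 the fitted changes in the fractions had opposite signs, but none of the 23 was called in both fractions. Choosing genes by the difference of the changes favours opposite signs, and the share over all genes is not given here. In all, 7 genes were called in microglia, all higher (DESeq2 called 63 in either direction, limma voom 8), and 178 in retina, 158 higher and 20 lower. Without 1 library the microglia count ran from 0 to 10, with 0 called by edgeR without control microglia replicate 1 or 2 (533 and 513 genes at an unadjusted p under 0.05), and the retina count from 82 to 213, with 82 without control retina replicate 2 or knockout retina replicate 3.

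At an unadjusted p under 0.05 the interaction reached 1003 genes (12.2%), 507 positive and 496 negative. The median interaction over all genes tested was 0.03, and across genes, which are not independent, the changes in the fractions had a Spearman correlation of 0.014. The standard error of an interaction had a median of 0.43, against 0.30 for the change in either fraction alone. With the replicate number as a block Rassf4 alone of the 23 passed, at an edgeR adjusted p of 0.00405; the other 22 lay between 0.0594 and 0.158, with the same direction and unadjusted p under 0.05 for all 23. With the number of detected genes as a covariate, which cannot be told apart from the genotype within a fraction, 0 genes passed (edgeR), 584 had an unadjusted p under 0.05, and all 23 kept their direction.

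**Figure D1:**
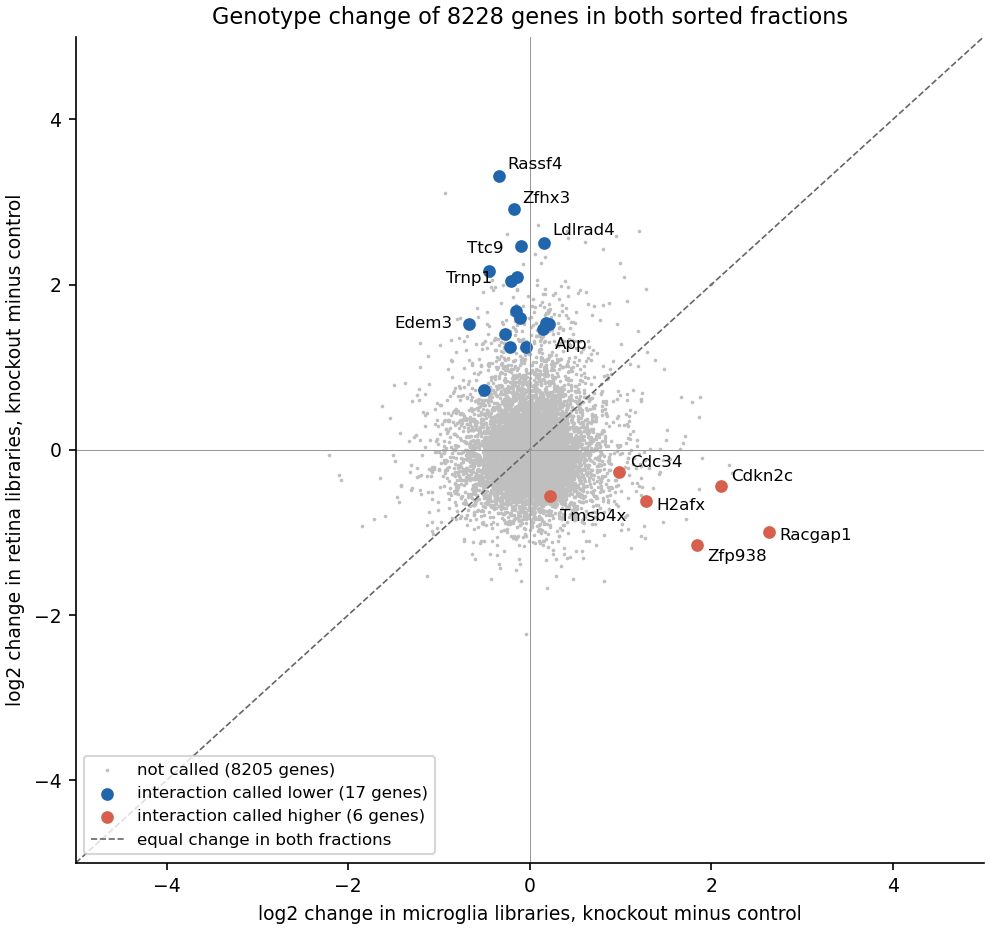
Each point is 1 of 8228 genes, with its log2 change between knockout and control in microglia (x axis) and in retina (y axis). The 17 genes with a negative called interaction (blue) lie above 0 on the y axis and near 0 on the x axis, between -0.67 and 0.21; 5 of the 6 positive ones (red) lie to the right, and Tmsb4x near the middle.

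Of the genes with a negative interaction, Rassf4 had the smallest p. Rassf4 encodes a member of the Ras association domain family, and the gene lies on GRCm38 at chromosome 6, 116633008 to 116673952. Rassf4 stood at 264, 247, 255 and 218 CPM in control and 230.1, 150.4, 190.1, 247 and 157 CPM in knockout microglia. Its retina values were 2.67, 1.29, 3.47 and 2.71 CPM for controls against 27.9, 36.4, 14.3, 24.7 and 23.5 CPM for knockouts. All knockout retina libraries were above all control retina libraries, while the microglia libraries of the genotypes overlapped. This gave a log2 change of -0.34 in microglia, one of 3.32 in retina and an interaction of -3.65 (SE 0.37, edgeR adjusted p = 5.23e-05). It passed in all 18 fits that left out 1 library, with edgeR adjusted p up to 0.000318 (without control retina replicate 1).

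Irf2bpl, which encodes a nuclear regulator of transcription, lies at chromosome 12, 86880701 to 86884798. Control microglia had 410.0, 446, 413 and 350.5 CPM of Irf2bpl and knockout microglia 411, 340.1, 426, 422 and 273 CPM. Control retina had 45.3, 35.2, 64.6 and 50.4 CPM of it, and knockout retina 128, 171, 181, 149 and 111 CPM. The retina libraries separated by genotype and the microglia libraries did not. Fitted changes on the log2 scale were -0.11 for microglia and 1.60 for retina, with an interaction of -1.71 (SE 0.27, edgeR adjusted p = 0.00859). Zfhx3, at chromosome 8, 107942644 to 108961630, encodes a zinc finger homeobox factor that sets the pace of the clock in the suprachiasmatic nucleus. Zfhx3 had 128, 152, 191 and 139 CPM in control microglia and 152, 113, 118, 122 and 169.9 CPM in knockout microglia. The control retina libraries had 4.59, 0.633, 1.47 and 2.97 CPM and the knockout ones 15.4, 8.44, 32.6, 20.9 and 14.7 CPM. Control retina was the lowest of the groups in every library. A microglia change of -0.18 and a retina change of 2.91 (log2) made an interaction of -3.09 (SE 0.58, edgeR adjusted p = 0.0212).

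App, at chromosome 16, 84949685 to 85173766, encodes the amyloid precursor protein. App stood at 314, 307, 288 and 241 CPM in control and 362, 335, 301, 295 and 294 CPM in knockout microglia. Its retina values were 144, 64.3, 99.3 and 115 CPM for controls against 278, 278, 379, 299 and 227 CPM for knockouts. The means were 287 CPM in control microglia, 318 CPM in knockout microglia, 106 CPM in control retina and 292 CPM in knockout retina. Its log2 change was 0.14 in microglia and 1.47 in retina, an interaction of -1.32 (SE 0.27, edgeR adjusted p = 0.0366). Itm2c encodes a membrane protein that binds the amyloid precursor protein. Control microglia had 1689, 1638, 1763 and 1685 CPM of Itm2c and knockout microglia 2029, 2053, 1796, 2101 and 1611 CPM. Control retina had 220.1, 101, 161 and 208 CPM of it, and knockout retina 506, 449, 618, 584 and 351 CPM. The genotypes overlapped in microglia only. The interaction was -1.36 (SE 0.27, edgeR adjusted p = 0.0314), the microglia change being 0.18 and the retina change 1.54 on the log2 scale. App passed in 6 of the 18 fits without 1 library, with an edgeR adjusted p of 0.0926 without control microglia replicate 1, and Itm2c in 9, with 0.0741 without knockout microglia replicate 5.

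Fscn1, Rab11fip5, Rnf130 and Edem3 encode proteins of the cytoskeleton, of recycling endosomes, of ubiquitin transfer and of glycoprotein degradation. Fscn1, whose product fascin bundles actin, had 539 ± 108 CPM in control microglia, 463 ± 89.6 CPM in knockout microglia, 44 ± 5.72 CPM in control retina and 104 ± 24.3 CPM in knockout retina. This gave a log2 change of -0.22 in microglia, one of 1.24 in retina and an interaction of -1.46 (SE 0.27, edgeR adjusted p = 0.0204). Rab11fip5, an effector of the endosome GTPase Rab11, had 128 ± 36.1 CPM in control microglia, 111 ± 15.4 CPM in knockout microglia, 3.26 ± 0.866 CPM in control retina and 13.4 ± 5.66 CPM in knockout retina. Fitted changes on the log2 scale were -0.21 for microglia and 2.04 for retina, with an interaction of -2.25 (SE 0.41, edgeR adjusted p = 0.0189). Edem3, a mannosidase of the endoplasmic reticulum, had 51.5 ± 3.95 CPM in control microglia, 32.3 ± 8.43 CPM in knockout microglia, 18.7 ± 9.56 CPM in control retina and 54 ± 13.3 CPM in knockout retina. It was the single gene of the 17 whose microglia libraries also did not overlap, with knockouts lower. A microglia change of -0.67 and a retina change of 1.53 (log2) made an interaction of -2.20 (SE 0.44, edgeR adjusted p = 0.0319). Rnf130, a ubiquitin ligase, had 468 ± 45.9 CPM in control microglia, 454 ± 30.9 CPM in knockout microglia, 20.1 ± 5.26 CPM in control retina and 47.4 ± 7.2 CPM in knockout retina. Its log2 change was -0.04 in microglia and 1.24 in retina, an interaction of -1.28 (SE 0.22, edgeR adjusted p = 0.0168).

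Ldlrad4, an inhibitor of TGF-beta signalling, had 60.6 ± 6.76 CPM in control microglia, 67.8 ± 12.1 CPM in knockout microglia, 1.79 ± 0.69 CPM in control retina and 10.1 ± 2.68 CPM in knockout retina. The interaction was -2.34 (SE 0.37, edgeR adjusted p = 0.00961), the microglia change being 0.16 and the retina change 2.50 on the log2 scale. Reads of the opposite-strand gene Fam210a (6569 over all libraries, against 24705 of Ldlrad4) could be mixed with it, since the sources used here do not state whether counting used strand. The same holds for Tpbgl (68540 reads) and Gm10605 (9081). Gnb2, the beta-2 subunit of heterotrimeric G proteins, had 160.1 ± 15 CPM in control microglia, 186 ± 25 CPM in knockout microglia, 10.2 ± 2.11 CPM in control retina and 29.4 ± 4.95 CPM in knockout retina. This gave a log2 change of 0.21 in microglia, one of 1.53 in retina and an interaction of -1.31 (SE 0.25, edgeR adjusted p = 0.0237). Trnp1, a nuclear protein of neural progenitors, had the lowest level in microglia relative to retina of the 17 (-2.83 log2, mean of both genotypes), with 21 ± 9.71 CPM in control microglia, 19 ± 4.89 CPM in knockout microglia, 69 ± 24.3 CPM in control retina and 294 ± 76.6 CPM in knockout retina. Fitted changes on the log2 scale were -0.14 for microglia and 2.09 for retina, with an interaction of -2.24 (SE 0.43, edgeR adjusted p = 0.0264).

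The remaining 5 were Tpbgl, Tspan33, Ttc9, Slc44a2 (a choline transporter-like protein) and 2510009E07Rik, whose interactions were -1.84, -2.62, -2.56, -1.68 and -1.23. Over all 17, retina changes ran from 0.73 to 3.32 and microglia changes from -0.67 to 0.21. In retina the genotypes did not overlap for any of the 17 (8.48% of genes tested did not), and in microglia they overlapped for 16 (3.15% of genes tested did not).

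**Figure D2:**
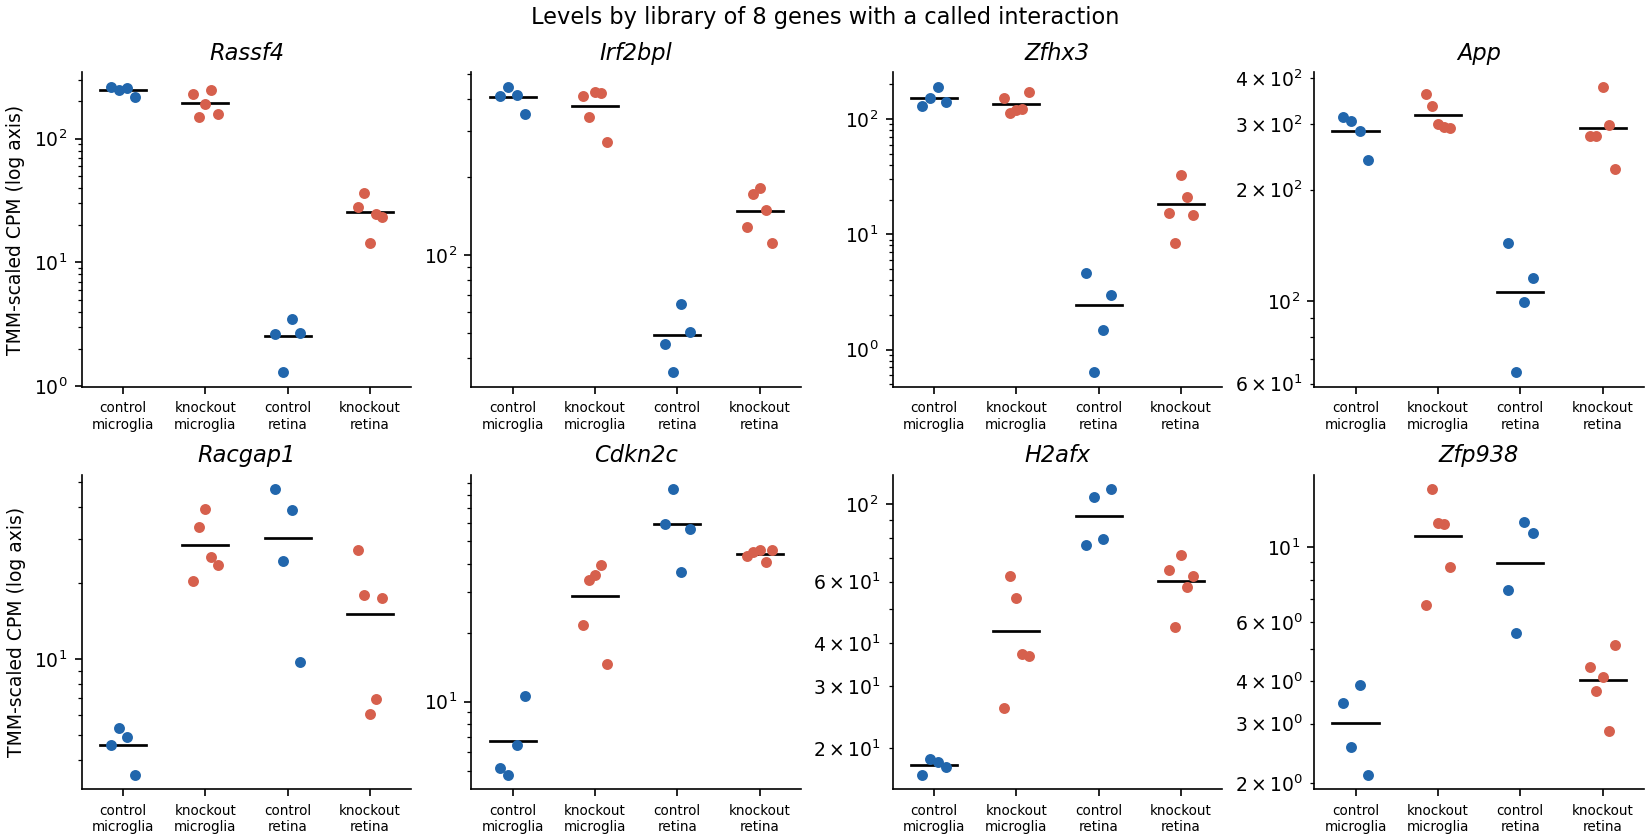
Each point is 1 library, in TMM-scaled CPM on a log axis, with the group mean as a line, for 4 genes with a negative (top) and 4 with a positive interaction (bottom). In the top row knockout retina lies above control retina; in the bottom row knockout microglia lies above control microglia.

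The genes with a positive interaction include regulators of division and of chromatin. Racgap1, at chromosome 15, 99620496 to 99651656, encodes a protein of the central spindle needed for cytokinesis. Racgap1 had 4.59, 5.35, 4.91 and 3.5 CPM in control microglia and 20.5, 33.3, 39.3, 25.5 and 23.5 CPM in knockout microglia. The control retina libraries had 47.2, 24.4, 39 and 9.73 CPM and the knockout ones 27.1, 18, 6.08, 6.98 and 17.4 CPM. Every knockout microglia library was above every control microglia library, and the retina libraries overlapped. A microglia change of 2.63 and a retina change of -0.99 (log2) made an interaction of 3.62 (SE 0.64, edgeR adjusted p = 0.0168). Cdkn2c, at chromosome 4, 109660876 to 109667189, encodes p18-INK4c, an inhibitor of the kinases CDK4 and CDK6. Cdkn2c stood at 5.13, 4.8, 6.48 and 10.5 CPM in control and 21.6, 33.8, 35.6, 39.5 and 14.6 CPM in knockout microglia. Its retina values were 59.8, 84.8, 36.6 and 56.5 CPM for controls against 43.1, 44.7, 45.8, 40.5 and 45.8 CPM for knockouts. Control replicate 4 was the highest of the control microglia libraries and still below the lowest knockout. Its log2 change was 2.11 in microglia and -0.43 in retina, an interaction of 2.54 (SE 0.44, edgeR adjusted p = 0.0168).

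H2afx, at chromosome 9, 44334694 to 44336077, encodes the histone variant H2AX, which is phosphorylated at DNA breaks. Control microglia had 16.8, 18.6, 18.2 and 17.6 CPM of H2afx and knockout microglia 26, 62.4, 53.9, 37.1 and 36.6 CPM. Control retina had 76.2, 105, 79.5 and 111 CPM of it, and knockout retina 64.7, 44.3, 71.6, 57.8 and 62.5 CPM. Knockouts were above controls in microglia and below them in retina, with no overlap in either fraction. The interaction was 1.90 (SE 0.33, edgeR adjusted p = 0.0168), the microglia change being 1.28 and the retina change -0.63 on the log2 scale. Zfp938, at chromosome 10, 82224850 to 82241280, encodes a zinc finger protein. Zfp938 had 3.46, 2.56, 3.9 and 2.12 CPM in control microglia and 6.72, 14.9, 11.8, 11.7 and 8.74 CPM in knockout microglia. The control retina libraries had 7.46, 5.58, 11.8 and 11 CPM and the knockout ones 4.4, 3.75, 4.12, 2.85 and 5.12 CPM. It too separated the genotypes in opposite directions. This gave a log2 change of 1.84 in microglia, one of -1.15 in retina and an interaction of 2.98 (SE 0.45, edgeR adjusted p = 0.00777). The retina change of H2afx and of Zfp938 did not pass, at adjusted p of 0.186 and 0.058.

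Cdc34 encodes the ubiquitin-conjugating enzyme that works with SCF ligases. It had 28.9 ± 6.74 CPM in control microglia, 57.2 ± 5.9 CPM in knockout microglia, 122 ± 12.1 CPM in control retina and 102 ± 6.96 CPM in knockout retina. Fitted changes on the log2 scale were 0.99 for microglia and -0.26 for retina, with an interaction of 1.25 (SE 0.24, edgeR adjusted p = 0.0285). Tmsb4x encodes thymosin beta-4, which holds actin monomers, and its retina change alone passed, with 4874 ± 559 CPM in control microglia, 5669 ± 721 CPM in knockout microglia, 127 ± 10.4 CPM in control retina and 85.9 ± 7.76 CPM in knockout retina. A microglia change of 0.22 and a retina change of -0.56 (log2) made an interaction of 0.78 (SE 0.16, edgeR adjusted p = 0.0463). Tmsb4x passed in 6 of the 18 fits without 1 library, with an edgeR adjusted p of 0.132 without control microglia replicate 3, and Cdc34 in 10, with 0.0646 without knockout retina replicate 3. The microglia change of Cdkn2c passed in 15 of these 18 fits, that of Zfp938 in 11, of Racgap1 and Cdc34 in 10 and of H2afx in 3, and all 5 failed without control microglia replicate 1, 2 or 3. By limma voom the microglia changes of H2afx and Cdc34 did not pass (adjusted p = 0.195 and 0.0589), nor did the retina change of Tmsb4x (0.159). Those of Cdkn2c, Racgap1 and Zfp938 in microglia passed by limma voom. The next genes in order of p did not pass: Rnaseh2b (a subunit of ribonuclease H2) had an interaction of 2.04 (edgeR adjusted p = 0.0555), Fam149b 1.67 (0.061), the ribosomal RNA gene CT010467.1 0.99 (0.0909) and the small GTPase Rap1b 0.72 (0.0909).

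Of the 23 genes, 10 passed in every one of the 18 fits that left out 1 library (Rassf4, Irf2bpl, Ldlrad4, Rnf130, Tpbgl, 2510009E07Rik, Racgap1, Cdkn2c, H2afx and Zfp938). The count itself ran from 10 without control microglia replicate 3 to 39 without control retina replicate 4. The differences between same-numbered microglia and retina libraries, read as pairs from one mouse, did not overlap between genotypes for any of the 23. Of all genes tested 4.56% did not overlap. These differences hold the same contrast in the same libraries as the test that chose the 23, so they are no further support. For control replicate 1 the Xist values given above differ between its fractions.

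The level of a gene in the fractions was set beside these changes. By a log2 difference of 3 between the fractions, 288 of the tested genes were enriched in microglia, 301 in retina and 7639 in neither. Of the microglia-enriched genes 7 had a called negative interaction (Rassf4, Zfhx3, Rab11fip5, Ldlrad4, Rnf130, Gnb2 and Slc44a2), 1 a positive one (Tmsb4x), and 33 were called higher in knockout retina, or 11.5% against 1.6% of the shared and 1.7% of the retina-enriched genes. Their retina change had a median of 0.28 and was above 0 for 68.4%, against a median of -0.04 and 45.8% for all genes tested. Of the 301 retina-enriched genes 0 had a called interaction by edgeR or limma voom, 11 by DESeq2, and 40 an unadjusted p under 0.05. Over all genes tested 0.28% had an interaction called by edgeR and 12.2% an unadjusted p under 0.05. The count of 0 among 301 genes lies near the first share.

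The 27 homeostatic microglia genes summed to 146 to 276 CPM in control and 232 to 437 CPM in knockout retina, a ratio of the means of 1.58, with 81000 to 93500 CPM in microglia of both genotypes; 5 and 7 of the 27 were at 0 in every library of control and of knockout retina. The border macrophage genes summed to 0.0575 to 5.15 and 17.4 to 23.4 CPM in control and knockout retina. The 7 microglia-enriched genes with a negative interaction had retina ratios of 2.36 to 10 between the group means. Of the homeostatic list itself 4 genes had 10 reads in every library, among them Sparc and Tgfbr1, and 0 of these 4 had a called change by edgeR in either fraction (unadjusted p under 0.05 for 0 in microglia and 1 in retina; DESeq2 called 1 in retina). The retina changes of Sparc and Tgfbr1 were 0.77 and 0.59. The part of microglial RNA in the retina libraries in these results was not tested.

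**Figure D3:**
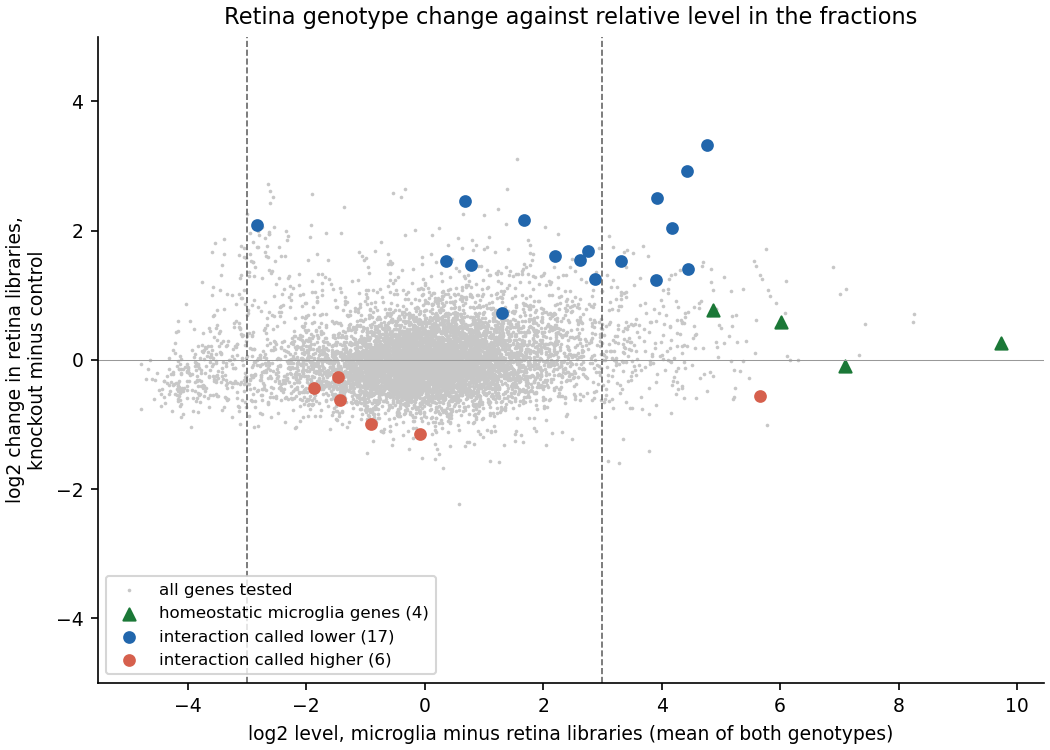
Each point is 1 gene, with its log2 level in microglia minus retina (x axis, mean of both genotypes) and its log2 change between knockout and control retina (y axis); dashed lines mark differences of -3 and 3. The 17 genes with a negative interaction (blue) all lie above 0 and 7 of them to the right of 3, where the 4 homeostatic microglia genes (triangles) lie as well.

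Of the 17 clock genes tested, 0 had a called interaction by edgeR (0.28% of genes tested did) or by limma voom, 3 did by DESeq2 and 6 had an unadjusted p under 0.05 (edgeR), and 11 had a negative one, with a median of -0.62 against 0.03 over all genes tested. With the level of rod genes as a covariate this median was -0.27, and the median microglia change of the list turned from -0.22 to 0.12. The rod level cannot be cleanly told apart from the genotype in retina. Of the clock genes named above as targets of BMAL1, Nr1d1, Per1, Per3, Dbp, Tef and Hlf had lower means in knockout than control microglia. Their means were higher in knockout than control retina, and none of these genes passed the edgeR test in either fraction. Cry1 and Cry2, also named as targets, did not show this pattern. Cry1 had means of 22.8 CPM in microglia of both genotypes, and 101 and 90 CPM in control and knockout retina. Cry2, given below, was higher in knockouts in both fractions. The share of all genes tested that were lower in knockout microglia and higher in knockout retina is not given here. The 3 that DESeq2 called were Nr1d1 (adjusted p = 0.00722), Per3 (0.0254) and Dbp (0.0303). Nr1d1 encodes REV-ERB alpha, the repressor of Bmal1 itself. Nr1d1 stood at 33.3, 38.3, 55.5 and 41.3 CPM in control and 47.3, 32.2, 13.8, 22.6 and 28.7 CPM in knockout microglia. Its retina values were 246, 182, 290.5 and 215 CPM for controls against 412, 586, 539.7, 501 and 313 CPM for knockouts. In retina the genotypes did not overlap and in microglia they did. Its log2 change was -0.54 in microglia and 1.01 in retina, an interaction of -1.55 (SE 0.38, edgeR adjusted p = 0.107). Per3, a Period repressor, had 8.69 ± 2.31 CPM in control microglia, 4.76 ± 2.08 CPM in knockout microglia, 14.2 ± 7.61 CPM in control retina and 35.6 ± 15.4 CPM in knockout retina. The interaction was -2.20 (SE 0.63, edgeR adjusted p = 0.168), the microglia change being -0.87 and the retina change 1.33 on the log2 scale. Dbp, an activator of D-box genes, had 21.8 ± 9.26 CPM in control microglia, 14.7 ± 5.65 CPM in knockout microglia, 57.3 ± 25.9 CPM in control retina and 123 ± 15.7 CPM in knockout retina. This gave a log2 change of -0.56 in microglia, one of 1.10 in retina and an interaction of -1.67 (SE 0.48, edgeR adjusted p = 0.173). Hlf, of the same family, had an interaction of -2.21 (edgeR adjusted p = 0.265), and Tef -1.52 (0.373).

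Cry2 is the one clock gene called in each fraction, and of the 8228 genes it alone was called in both in the same direction. Control microglia had 19.6, 27.8, 33.8 and 33 CPM of Cry2 and knockout microglia 56.6, 88.1, 98.7, 69.8 and 59.4 CPM. Control retina had 104, 90.3, 110.5 and 117 CPM of it, and knockout retina 207, 254, 248, 216 and 192 CPM. Knockouts lay above controls in both fractions, with no overlap. Fitted changes on the log2 scale were 1.38 for microglia and 1.08 for retina, with an interaction of 0.30 (SE 0.27, edgeR adjusted p = 0.708). The 95% interval of its interaction ran from -0.27 to 0.87. The retina call of Cry2 passed in all 18 fits without 1 library, and its microglia call in 16, failing without control microglia replicate 1 or 2 (edgeR adjusted p up to 0.0837). Nfil3, a repressor of D-box genes, had microglia and retina changes of 1.78 and 0.58, and Bhlhe40, a repressor of E-box genes, 0.78 and 1.57; neither interaction passed (edgeR adjusted p = 0.411 and 0.718). The microglia change of Bhlhe40 rested on knockout microglia replicate 2 (49.8 CPM), without which it was -0.04. Clock, Cry1, Rorb and Rora had interactions between -0.26 and 0.17.

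**Figure D4:**
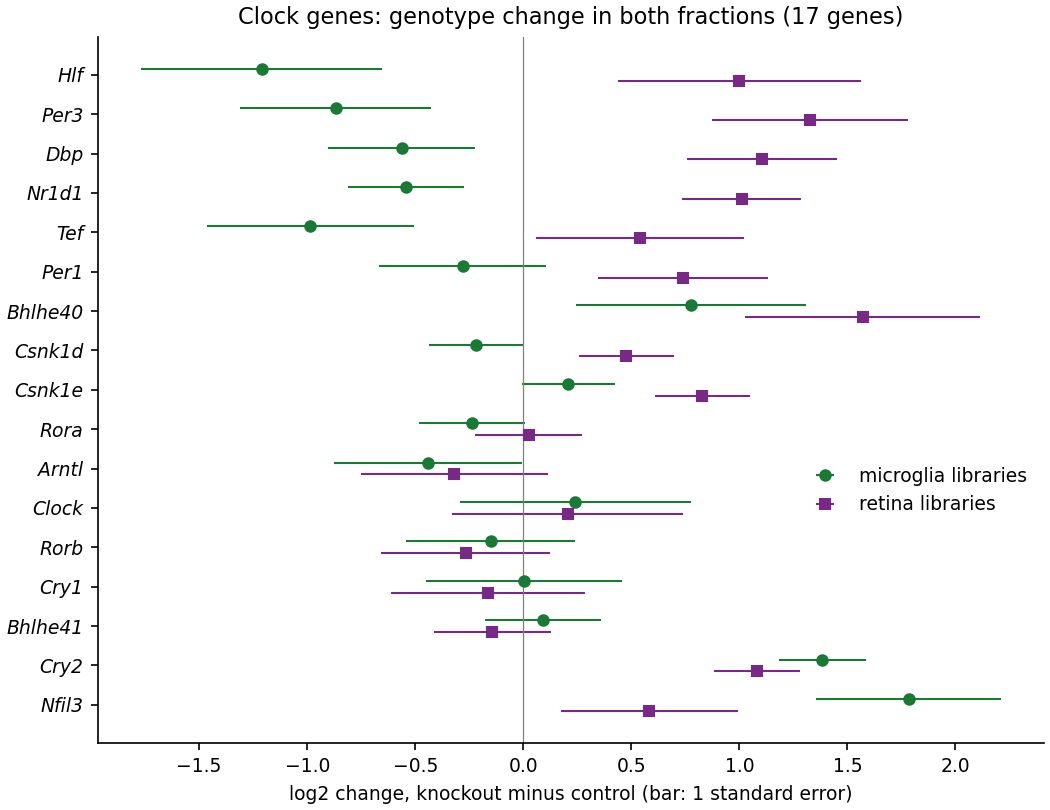
Each row is 1 of the 17 clock genes tested, Arntl included, with its log2 change between knockout and control in microglia (circles) and retina (squares), with 1 standard error as a bar. From Hlf to Nr1d1 the circles lie below 0 and the squares above it, and for Cry2 both lie between 1.08 and 1.38.

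Of the cell cycle list 13 of 43 genes were tested, and Racgap1 had a called interaction (0.28% of genes tested did). Of the 13 interactions 11 were positive, against 51.8% over all genes tested. A positive microglia change was found for 13 of 13, against 4233 of the 8228 genes tested. Its median was 0.61, against 0.01 over all genes tested. In the list 4 interactions and 9 microglia changes had an unadjusted p under 0.05 (edgeR). DESeq2 called 2 interactions and limma voom 1. Stmn1, which destabilizes microtubules, rose in microglia (1.87; edgeR adjusted p = 0.0309) with a retina change of 0.64 and an interaction of 1.23 that did not pass (0.272). Its microglia call was lost without any 1 of the control microglia replicates or of knockout microglia replicates 2, 3 and 5 (edgeR adjusted p up to 0.131). Hmgb2, a chromatin protein, and Ccnd1, the D-type cyclin, had interactions of 1.36 and 1.43 that did not pass (edgeR adjusted p = 0.168 and 0.216). Of 12 p53 targets 0 had a called interaction (3 with an unadjusted p under 0.05; DESeq2 called 1, limma voom 0) and 10 had a positive one; Bax, which drives apoptosis, had microglia and retina changes of 0.87 and -0.15. Trp53 itself was called higher in retina (1.09; edgeR adjusted p = 0.0449), but in only 5 of the 18 fits without 1 library, none of them without a control retina library, and not by limma voom (0.121).

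The lists of retinal neurons had interactions of either sign. Over all 8228 genes tested 4260 interactions were positive and 3968 negative, and 4460 retina changes were negative. All 7 bipolar genes tested had a negative interaction, with a median of -1.84, and 4 rose in retina (1.92% of genes tested were called higher there), among them Pcp2 (1.99), Trpm1 (2.51) and Cabp5 (1.75); limma voom called all 7. All 9 cone genes had a negative one too, with a median of -1.16, and Opn1mw (1.87), Opn1sw (1.81), Gnb3 (1.76) and Ccdc136 (2.05) rose in retina, where limma voom called 7. The retina calls of both lists were lost without control retina replicate 2; without control retina replicate 3 or knockout retina replicate 3 or 4, 1 gene of each list passed, and with the filterByExpr filter 1 of each. Without knockout retina replicate 2, 2 of each passed, without knockout retina replicate 1, 1 cone gene, and without knockout retina replicate 5, 7 cone genes. Of the 18 fits without 1 library, Gnb3 passed in 17, Trpm1 in 14, Pcp2, Opn1mw and Ccdc136 in 12, Opn1sw in 9 and Cabp5 in 2. The 26 rod genes all had a negative retina change, of which Gngt1 passed in edgeR (-1.05; adjusted p = 0.046; in 7 of the 18 fits without 1 library), while DESeq2 called 3 and limma voom 12 of the 26 in retina. A positive interaction was found for 19, with a median of 0.40. It became 0.16 with the level of rod genes as a covariate. This level is the mean over the rod list itself, so it takes out part of the change that these genes share. Summed rod CPM in retina did not overlap between genotypes (201000 to 294000 in control, 158000 to 197000 in knockout). The rod level therefore cannot be cleanly told apart from the genotype there. With the level of homeostatic microglia genes as a covariate the rod median was -0.08. None of the bipolar, cone and rod genes had a called interaction by edgeR, where the unadjusted p was under 0.05 for 5, 4 and 4 of them; by DESeq2 1, 1 and 0 passed, and by limma voom 0. Summed over the lists, rod genes had 181000 CPM in knockout and 241000 CPM in control retina, bipolar genes 3210 and 1020 CPM, and cone genes 5130 and 1560 CPM. With the level of rod genes or the number of detected genes as a covariate, the median interaction of the bipolar list turned to 0.30 or 0.08 and that of the cone list to 0.78 or 0.05. Mueller glia genes had a median of -0.74, 10 of 12 negative, with 0 interactions called by edgeR, DESeq2 or limma voom (3 with an unadjusted p under 0.05), and turned to 0.57 or 0.12. With the level of homeostatic microglia genes as a covariate the cone and Mueller glia medians were -0.67 and -0.29.

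Of 15 immediate early genes tested, Egr1, Klf6 and Fos, transcription factors that cells make within minutes of a stimulus, rose in retina by 2.05, 1.33 and 1.56 and had microglia changes of -0.42, -0.10 and -0.11; their interactions of -2.47, -1.43 and -1.67 did not pass (edgeR adjusted p = 0.133, 0.205 and 0.227). Of all genes tested 1.92% were called higher in retina. All 3 retina calls of these immediate early genes were lost without control retina replicate 1, 2 or 3 or knockout retina replicate 2. They were also lost with the filterByExpr filter, and Fos passed in 6 of the 18 fits without 1 library. Of 77 ribosomal protein genes 67 had a positive interaction, with a median of 0.37, and 76 a negative retina change. Over all 8228 genes tested 4260 had a positive interaction and 4460 a negative retina change. Rps20, Rpl21, Rps27a and Rps25 fell in retina (0.243% of genes tested were called lower there). These 4 calls were all lost without control microglia replicate 4, control retina replicate 2 or 4, or knockout retina replicate 1, 2, 3 or 4. Of the ribosomal protein interactions 0 passed by edgeR (18 with an unadjusted p under 0.05) or limma voom, and 4 by DESeq2. Of 75 nuclear genes of oxidative phosphorylation 65 had a positive interaction, with a median of 0.27; 0 interactions were called by edgeR, DESeq2 or limma voom, where 14 had an unadjusted p under 0.05 (edgeR). These medians kept their sign under the scaling of DESeq2 and under TMM within each fraction, and were 0.60 and 0.42 with the number of detected genes as a covariate. Reads of ribosomal protein genes can be split with their pseudogenes.

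Some lists of microglial function held genes called in retina. Of all genes tested 1.92% were called higher there, and of the microglia-enriched genes 11.5%. The disease-associated, MHC class I and lysosome lists had median levels of 3.40, 3.33 and 2.79 in microglia minus retina (log2). Of 17 disease-associated microglia genes Serpine2 (1.02), Ctsz (0.87) and Lgals3bp (1.54) rose in knockout retina, of 13 genes of MHC class I presentation Tap2 (1.61) and H2-K1 (1.29), and of 43 lysosome genes Psap (0.55), Gaa (0.93) and Ctsz; their microglia changes lay between -0.02 and 0.50 and did not pass. Ctsz and Lgals3bp passed in all 18 fits without 1 library and the other 5 in 15 to 17, each failing without control retina replicate 2; limma voom did not call Serpine2, Lgals3bp and H2-K1. The homeostatic, MHC class II, complement, interferon-stimulated and inflammatory lists, with 4, 4, 1, 7 and 5 genes tested, had 0 called in retina by edgeR (1, 1, 0, 2 and 3 with an unadjusted p under 0.05), 1, 1, 0, 1 and 0 by DESeq2 and 0, 0, 0, 0 and 1 by limma voom. The interactions of the disease-associated, MHC class I and lysosome genes did not pass by edgeR. In these lists 5, 2 and 7 genes reached an unadjusted p under 0.05 (edgeR), and by DESeq2 2, 1 and 1 passed. The lysosome list had a median change of 0.15 in both fractions. Of 33 genes of actin dynamics Tmsb4x alone had an interaction called by edgeR (0.28% of genes tested did). DESeq2 called 3 of these genes and limma voom 0. A positive microglia change was found for 27 of the 33, against 4233 of the 8228 genes tested. Arpc4, a subunit of the Arp2/3 complex, and Actg1, cytoplasmic actin, had interactions of 0.73 and 0.65 (edgeR adjusted p = 0.107 and 0.16). Of the 32 lists with a tested gene, 2 held a gene with an interaction called by edgeR, the cell cycle and the actin list; 14 did by DESeq2, and by limma voom the cell cycle list alone. With TMM within each fraction or at least 50 reads in every library, Tmsb4x did not pass. These lists were written with earlier results of these data known.

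**Figure D5:**
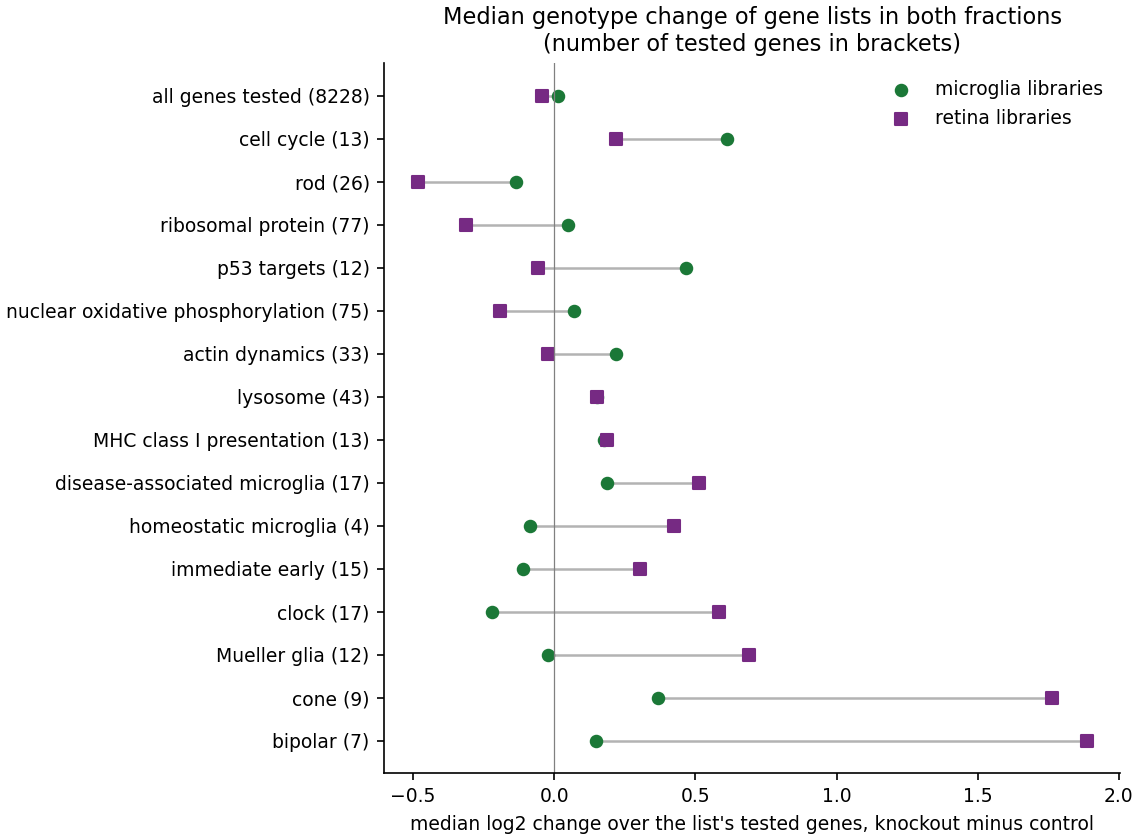
Each row is a gene list, with its median log2 change between knockout and control in microglia (circle) and in retina (square); the number of genes tested is in brackets. Of the lists shown, bipolar and cone genes have the widest gaps, with retina medians of 1.89 and 1.76, and for all genes tested the medians lie at 0.01 and -0.04.

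The requirement of 10 reads in every library left out any gene with fewer reads in even a single library, whatever its group means. At the boundary, 105 genes had a lowest value of exactly 10 reads, such as Aldoart2 (means of 1, 0.737, 5.78 and 4.85 CPM in control microglia, knockout microglia, control retina and knockout retina) and Arid5b (15.1, 18.7, 7.1 and 19 CPM). The 37 genes with a lowest value of 9 reads include Aqp4 (23.3, 12, 90.4 and 166 CPM).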

How the data were processed

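RNA of flow-sorted cells was amplified with a SMARTer Ultra Low kit and sequenced as paired reads, per the labels' protocols, so a count is not an independent molecule. The authors deposited raw counts per gene for 18 libraries. The submitters' processing notes name DRAGEN, STAR 2.7.9a, Subread, featureCounts, edgeR and limma, with the build GRCm38 and no roles; strand use is not given in the sources used here. Of 55774 lines, 287 repeated an identifier with identical counts, leaving 55487 genes. Names and positions came from GENCODE M21, where 55141 genes were found. The deposited tables of the authors' own comparisons were not used.

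Genes with at least 10 reads in every library entered edgeR 4.0.16 (R 4.3.3), whose quasi-likelihood test was run with 4 group means, TMM scaling and Benjamini-Hochberg adjustment over all 8228 genes at 0.05. The interaction and the change in each fraction came from the same fit. Alternatives were other scalings and filters, DESeq2 1.42.0, limma 3.58.1 (voom), a replicate block, covariates and leaving out libraries.

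The members and gene lists were chosen with earlier results of these data known. Named were Arntl, up to 15 called genes with the smallest p in each direction (without predicted names, filled to 10 where fewer were called), the clock list, and from other lists described up to 4 genes with the smallest p and any called; 2510009E07Rik, Slc44a2 and further list genes called in one fraction were named with their values in view. A few genes taken by these rules are not reported here.

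Both fractions came from one simultaneous sort per the design text, and a shared replicate number within a genotype was therefore read as one mouse, although the labels do not state this outright and the Xist level of control replicate 1 differs between its fractions, which leaves the pairing uncertain. Deviations of same-numbered libraries from their group means had correlations of -0.081 to 0.03.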

Additional observations from a re-analysis of the deposited data

Results flagged for a closer look

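For 23 genes the test of the interaction itself found that the genotype change differed between microglia and retina (edgeR, adjusted p under 0.05). The interaction was positive for Racgap1 (3.62), Zfp938 (2.98), Cdkn2c (2.54), H2afx (1.90), Cdc34 (1.25) and Tmsb4x (0.78). It was negative for Rassf4 (-3.65), Zfhx3 (-3.09), Tspan33 (-2.62), Ttc9 (-2.56), Ldlrad4 (-2.34), Rab11fip5 (-2.25), Trnp1 (-2.24), Edem3 (-2.20), Tpbgl (-1.84), Irf2bpl (-1.71), Slc44a2 (-1.68), Fscn1 (-1.46), Itm2c (-1.36), App (-1.32), Gnb2 (-1.31), Rnf130 (-1.28) and 2510009E07Rik (-1.23).

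Single libraries stood far from the others of their group, by the gap to the nearest library as a share of the group's range, in 5 of 176 combinations of a gene and a group. They were Tmsb4x in knockout retina replicate 3 (72.4 CPM), Fam149b in knockout microglia replicate 2 (49.2 CPM) and in control retina replicate 2 (67.1 CPM), Gnb2 in control microglia replicate 4 (138 CPM) and Bhlhe40 in knockout microglia replicate 2 (49.8 CPM). Chance alone gives such a gap in about 1 in 20 groups.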

How the results depend on the processing

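The count of 23 called interactions was 23 with the size factors of DESeq2, 22 with TMM within each fraction and 21 with at least 50 reads in every library. It was 85 with the filterByExpr filter (14 higher, 71 lower; 21 of the 23 among them), 58 without a filter, 14 with a median of at least 10 reads in each group (5 higher, 9 lower), 214 with DESeq2 (all 23 among them), 29 with limma voom and 23 when the filterByExpr fit was counted among the same genes. Of the 17 negative interactions among the 23, limma voom called 13 and the fit without a filter 9. The filterByExpr, no-filter and median settings also test genes below 10 reads in some library, and the 14 are all among the 23. It was 0 with the number of detected genes (584 at an unadjusted p under 0.05) or the level of rod genes (435) as a covariate. It was 1 with the level of homeostatic microglia genes, chosen after seeing the data. The number of detected genes, and in retina the rod level, cannot be cleanly told apart from the genotype. The cause was not tested.

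Without 1 library the count ran from 10 to 39, with 13 without knockout microglia replicate 5, 14 without knockout retina replicate 1 or 4 and 36 without knockout retina replicate 5. Without both libraries of a replicate number it ran from 5 (control 2 or 3, knockout 3) to 25, with 15, 9, 12, 13 and 15 for control 1 and knockouts 1, 2, 4 and 5, and it was 7 without replicate 1 in all groups (chosen after seeing the data). The 7 genes called in microglia became 32 with filterByExpr, 63 with DESeq2, 4 with the microglia libraries alone, 0 with the gene number covariate and 0 to 10 without 1 library (0 without control microglia replicate 1 or 2). The 178 called in retina became 511 with DESeq2, 7 with that covariate, 1 and 2 with the levels of rod and homeostatic microglia genes, and 82 to 213 without 1 library (82 without control retina replicate 2 or knockout retina replicate 3).

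With the replicate number as a block, 1 of the 23 passed, and 904 genes had an unadjusted p under 0.05; as a random effect in voom, 27 genes passed. Under the block the interaction of Rorb turned from 0.12 to -0.18.

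All 23 kept their direction with the block and with each of the 3 covariates. Other named interactions turned sign. With detected genes as a covariate these were Clock -0.39, Per1 0.13, Cry1 -0.30, Bhlhe41 -0.70, Pcp2 0.084, Gng13 0.14, Trpm1 0.30, Opn1mw 0.63, Timp2 0.38, Sparc 0.33, Psme1 0.10, Slc1a3 0.13, Clu 0.006, Rlbp1 0.013 and Btg2 0.035. With the level of rod genes they were Bhlhe41 -0.13, Pcp2 0.43, Gng13 0.56, Trpm1 0.30, Opn1mw 0.44, Gnb3 0.091, Timp2 0.34, Sparc 0.62, H2-K1 0.23, Psme1 0.24, Dkk3 0.051, Slc1a3 0.36, Clu 0.51 and Rlbp1 0.63, and with that of homeostatic microglia genes Rorb -0.72 and Sparc 0.42. Rorb was -0.15 with voom, with or without the random block, and -0.47 with quality weights, where Bhlhe41 was -0.021. Leaving out 1 library gave interactions of -0.43 to 0.16 for Arntl, -0.34 to 0.30 for Clock, -0.14 to 0.56 for Cry1 and -0.33 to 0.39 for Rorb. Without both libraries of a replicate number Arntl was 0.018 (knockout 1), 0.11 (knockout 2) and 0.17 (control 4), Clock -0.27 (control 1), -0.094 (control 4), -0.20 (knockout 2) and -0.043 (knockout 4), and Cry1 -0.17 (control 1) and -0.11 (knockout 3). In the same fits Rora was 0.001 (control 4) and Rorb -0.073 (control 1) and -0.33 (knockout 2), and without replicate 1 in all groups Arntl was 0.13, Clock -0.18, Cry1 -0.30 and Rorb -0.01; the cause was not tested.

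Genes below 10 reads in any library, which include most of the homeostatic microglia list, were not tested.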

Other observations

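Further genes, of lists not described above, rose in knockout retina, where 1.92% of genes tested were called higher. Cplx3, a complexin of ribbon synapses, had a retina change of 1.63 (edgeR adjusted p = 0.00605) and a microglia change of 0.17. Pygm, a glycogen phosphorylase, had 1.63 (0.0129) and 0.40, and Kcnma1, a calcium-activated potassium channel, 1.74 (0.0174; lost without control retina replicate 2 or 3 or knockout retina replicate 3) and 0.70. Their interactions of -1.46, -1.24 and -1.04 did not pass (edgeR adjusted p = 0.152, 0.272 and 0.418). Of 11 genes of the mitochondrial genome, all 11 had a negative retina change and 8 a positive microglia change, with medians of -0.24 and 0.15. Over all 8228 genes tested 4460 had a negative retina change and 4233 a positive microglia change.

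Length and GC content were taken from the longest GENCODE M21 transcript of each gene, which need not be the one expressed here. The 17 genes with a negative called interaction had a median transcript length of 4077 nt, the 6 with a positive one 1754 nt, and all genes tested 3107 nt. Among genes at an unadjusted p under 0.05 the medians were 3680 nt for negative and 2419 nt for positive interactions. Median GC content was 49.5%, 52.7% and 49.4% for the called negative, the called positive and all genes tested.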
